A study of Mus musculus with 16 samples.

Results

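The 10 genes described here are Nr3c1, which encodes the glucocorticoid receptor, Hsd11b1, which encodes an enzyme that regenerates active glucocorticoid inside cells, the glucocorticoid-responsive genes Fkbp5, Tsc22d3, Sgk1, Zbtb16, Cebpb and Cebpd, and the metallothionein genes Mt1 and Mt2. They were chosen by symbol from the 14538 genes of the deposited table, and all 10 were among the 11841 genes with enough reads to be tested. The choice was made with results from these libraries in view. The differences of these genes between the groups are therefore a description of these mice, and their p-values, whether from the fit across all tested genes or from permutations, are no independent evidence.

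The RNA came from tibialis anterior, a fast-twitch muscle at the front of the lower leg, of 16 mice, each giving 1 library: 5 had received vehicle, 6 had received GDF15 and 5 had been pair-fed. All mice were wild-type males of the C57BL/6 background (C57BL/6J in the study's methods) that were single-housed at about 29 °C and ate a NASH diet, rich in fat and fructose, from 8 weeks of age. GDF15-treated mice received recombinant GDF15, a stress-induced hormone that lowers appetite through a receptor in the hindbrain, by subcutaneous injection once a day in the early light phase. Pair-fed mice were given the food that GDF15-treated mice had eaten on the previous day, so that they ate less without receiving GDF15. Doses of 0.3, 1 or 5 nmol/kg are listed for the study, and the labels do not say which of these each mouse received, at what hour the muscle was taken, or how old the mice were by then. The comparison of GDF15-treated with vehicle-treated mice holds GDF15 and reduced intake together, pair-fed against vehicle-treated holds reduced intake without GDF15, and GDF15-treated against pair-fed holds GDF15 at matched intake. The labels do not say when these mice ate, so the amount eaten and the hours of eating cannot be told apart in these comparisons.

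Glucocorticoids, corticosterone in mice, are adrenal steroids that follow a daily rhythm and rise with stress and food shortage. The hormone binds its receptor in the cytoplasm, where chaperones hold the receptor ready, and the complex moves into the nucleus and switches on genes that include an inhibitor of the receptor itself, FKBP51, encoded by Fkbp5. In skeletal muscle these hormones are known for promoting protein breakdown and amino acid release. Metallothioneins are small cysteine-rich proteins that bind zinc and copper, and their genes respond to metals through the factor MTF1 and, in many tissues, to glucocorticoids and to fasting.

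The sequence just before a gene's start is where much of this control takes place, so the starts of the metallothionein genes and a stretch near Sgk1 are shown first. RefSeq windows on GRCm38.p6, running from 250 bases before to 50 bases after an annotated start, were matched for 7 of the 10 genes, with 14 windows among them. In the first 2 sequences the capitals mark the core of the metal response element, searched as TGCGCNC or TGCACNC on both strands. In the Sgk1 sequence the capitals mark a pair of AGAACA motifs, the letters that the glucocorticoid receptor is known to prefer, facing each other across 3 bases.
Mt1, chr8:94178839-94179138, plus strand: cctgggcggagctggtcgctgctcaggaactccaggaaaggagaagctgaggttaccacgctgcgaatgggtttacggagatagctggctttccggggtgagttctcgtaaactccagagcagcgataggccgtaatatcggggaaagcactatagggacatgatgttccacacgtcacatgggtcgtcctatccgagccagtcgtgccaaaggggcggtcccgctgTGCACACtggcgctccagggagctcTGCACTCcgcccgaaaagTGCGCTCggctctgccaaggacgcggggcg
Mt2, chr8:94172368-94172667, plus strand: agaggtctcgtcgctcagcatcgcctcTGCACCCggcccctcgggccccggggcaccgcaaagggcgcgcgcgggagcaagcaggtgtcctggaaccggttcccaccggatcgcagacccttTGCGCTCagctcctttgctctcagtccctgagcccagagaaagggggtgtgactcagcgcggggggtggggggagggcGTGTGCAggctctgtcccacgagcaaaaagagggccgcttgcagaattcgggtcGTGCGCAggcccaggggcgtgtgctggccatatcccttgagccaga
Sgk1, chr10:21993656-21993755, plus strand: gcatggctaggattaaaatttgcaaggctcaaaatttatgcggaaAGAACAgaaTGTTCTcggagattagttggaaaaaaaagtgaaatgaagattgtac

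The Mt1 window holds 3 metal response cores, whose first bases lie at positions -23, 3 and 21 counted from the annotated start, and the Mt2 window holds 4, at -223, -128, -50 and 5. A core is found in 25.7% of the 32851 windows in the RefSeq table, and 3 or more are found in 1.97%. The palindrome near Sgk1 starts 189 bases before one annotated start of the gene and 965 bases before the next one downstream. It was found in 3 of the 32851 windows, whereas a single AGAACA is found in 19% of them. Among the members with windows, only Sgk1 and Tsc22d3 have an AGAACA in them, and Nr3c1, Cebpd and Zbtb16 were not searched. These are matches of letters and were not measured as binding sites here.

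Reads were summed per gene by the study's software and deposited on a log2 scale. They were transformed back to normalized counts, which are reads adjusted for the depth of the library. The approximate depth was 11883587 to 15048271 reads in vehicle-treated, 9468599 to 13816447 in GDF15-treated and 11769368 to 14737570 in pair-fed mice, so that the GDF15 libraries were on average shallower. A difference was called, and is described below as a rise or fall, at an adjusted p-value under 0.1 from limma and a log2 fold change of more than 0.6 in size, the thresholds the study used for this muscle. Fold changes are on the scale log2(normalized count + 1). The 3 comparisons share groups of mice and are not independent of one another.

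Relative to their length, the members span a wide range of levels. In vehicle-treated mice, Sgk1 (482 ± 55.7 normalized counts per kb of merged exons, mean ± SD, n = 5) and Tsc22d3 (415 ± 29.6) stood highest, followed by Cebpb (279 ± 33.0), Zbtb16 (234 ± 36.5) and Nr3c1 (146 ± 7.10). Mt1 (61.1 ± 4.86), Cebpd (48.6 ± 14.8), Fkbp5 (45.4 ± 10.9) and Mt2 (41.0 ± 8.19) followed, and Hsd11b1 (12.5 ± 4.08) was lowest. The neighbours Sgk1 and Tsc22d3, Cebpb and Zbtb16, and each pair next to each other from Mt1 to Mt2 differed by less than their combined SDs. Nr3c1 and Hsd11b1 were separated from their neighbours in that order.

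**Figure D1:**
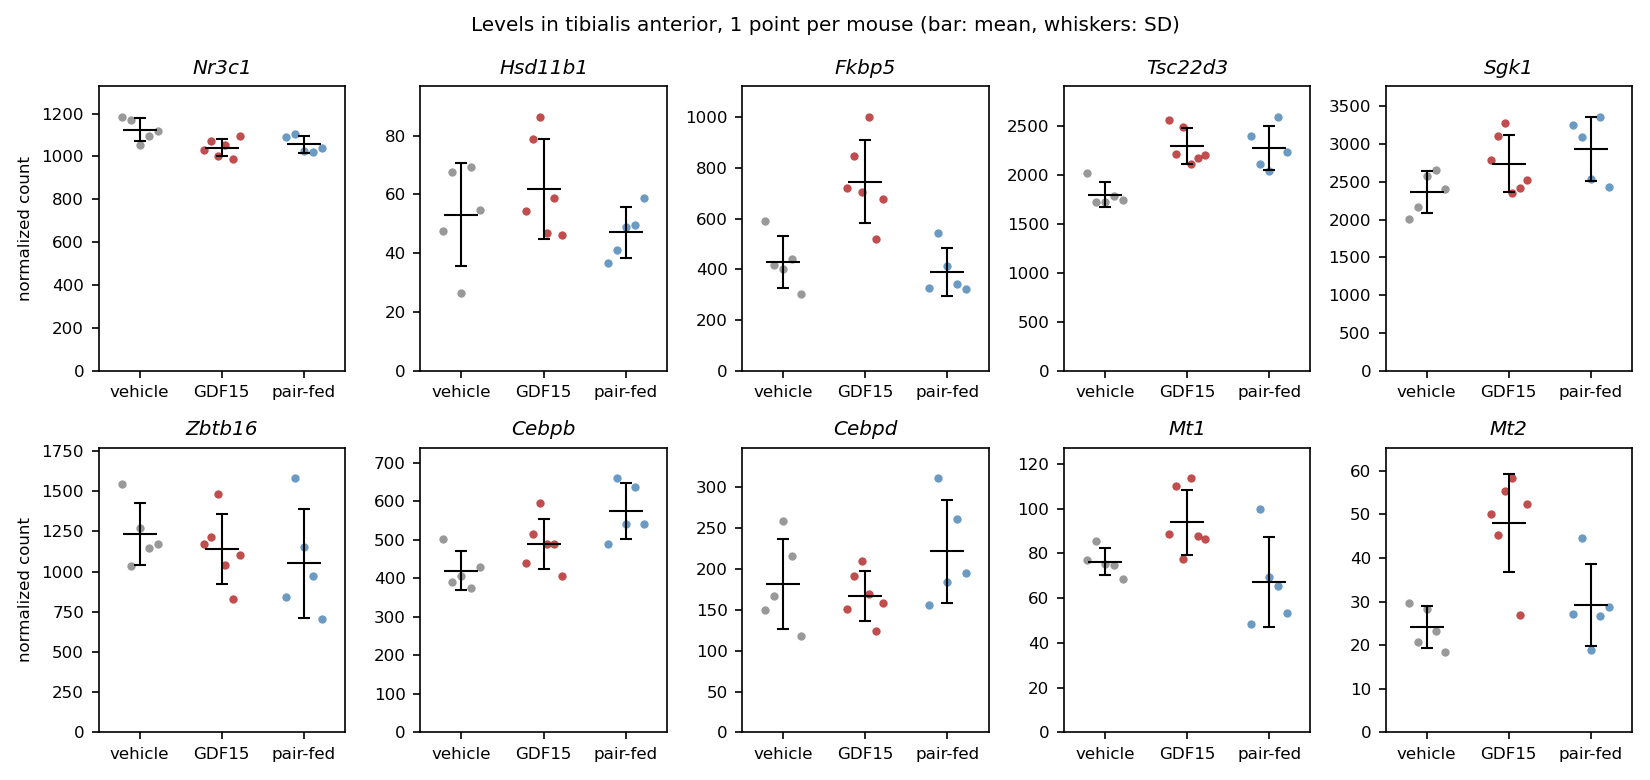
Normalized counts (vertical axes, each from 0) of the 10 genes in each mouse of the vehicle, GDF15 and pair-fed groups, with 1 point per mouse and the mean ± SD drawn in black. Fkbp5 and Mt2 are high in 5 of 6 GDF15-treated mice, Tsc22d3 is high in both groups with reduced intake, and Nr3c1 has the smallest spread within groups.

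Among the 10 genes, Fkbp5 and Mt2 rose in GDF15-treated compared with vehicle-treated mice, Fkbp5 also rose compared with pair-fed mice, and none was called between pair-fed and vehicle-treated mice. These are 2, 1 and 0 members, beside 0.304%, 0.279% and 0.819% of all tested genes called in the same comparisons. An unadjusted limma p under 0.05 was found for 5 members in GDF15 against vehicle, 3 in pair-fed against vehicle and 4 in GDF15 against pair-fed, beside 11%, 18.9% and 13.2% of all tested genes. The counts at that level given below for other gene lists follow this order and stand beside these shares. Tsc22d3 passed the p-value threshold but not the fold threshold in both groups with reduced intake, and Cebpb did so in pair-fed mice. By the p-value threshold alone, 3 members passed between GDF15-treated and vehicle-treated mice (0.769% of all genes), 2 in pair-fed against vehicle-treated mice (6.37%) and 1 in GDF15-treated against pair-fed mice (2.17%). The median log2 fold change over the members was 0.23, 0.07 and 0.08 in GDF15 against vehicle, pair-fed against vehicle and GDF15 against pair-fed, while the median over all tested genes was 0.00 in each.

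**Figure D2:**
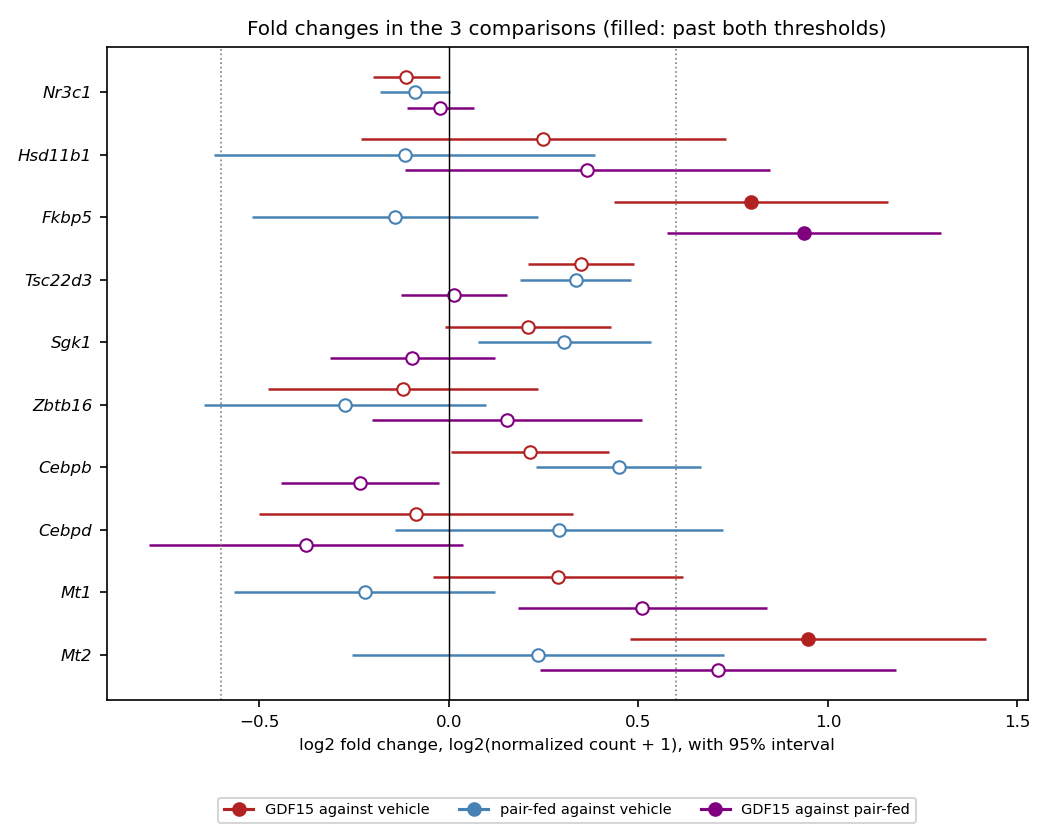
Log2 fold change (horizontal axis, log2(normalized count + 1) scale) of the 10 genes in each of the 3 comparisons, with 95% intervals from limma. Filled points passed both thresholds and dotted lines mark the fold threshold of 0.6 in either direction. Fkbp5 is filled in both comparisons that hold GDF15, and its interval against vehicle runs from 0.43 to 1.16.

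The receptor gene Nr3c1 varied least within groups. Its levels were 1186, 1169, 1053, 1095 and 1119 normalized counts in vehicle-treated mice, 989 to 1094 (median 1041) in GDF15-treated mice and 1091, 1103, 1025, 1022 and 1039 in pair-fed mice. The 3 groups overlapped, with a coefficient of variation of 3.62% to 4.85% within each, the lowest of the 10 genes. The log2 fold change was -0.11 ± 0.04 (SE) in GDF15-treated and -0.09 ± 0.04 in pair-fed mice compared with vehicle-treated mice (adjusted p = 0.320 and 0.283), and neither passed the threshold. The 95% interval for GDF15 against vehicle ran from -0.20 to -0.02, and none of 6 GDF15-treated and 5 pair-fed mice was above the vehicle median. The unadjusted exact permutation test, two-sided, gave p = 0.0173 and 0.0476. For GDF15 against pair-fed the 95% interval ran from -0.11 to 0.07.

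Hsd11b1, on chromosome 1 (193221634 to 193264075, GRCm38), encodes the reductase that turns inert 11-dehydrocorticosterone back into corticosterone. It was expressed at a low level, with 47.6, 67.5, 26.6, 69.4 and 54.5 normalized counts in vehicle-treated mice, 46.3 to 86.5 (median 56.6) in GDF15-treated mice and 36.8, 40.9, 49.1, 49.7 and 58.8 in pair-fed mice. The groups overlapped widely. The intervals of its log2 fold change, -0.23 to 0.73 for GDF15 against vehicle and -0.12 to 0.85 for GDF15 against pair-fed, include differences larger than the fold threshold.

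The rest of the receptor's machinery also gave no called gene. Of 15 tested genes for its chaperones, coactivators, corepressors and the related mineralocorticoid receptor Nr3c2, such as Fkbp4, Ptges3, Ncoa1 and Ncor1, 6 were higher and 9 lower in GDF15-treated than in vehicle-treated mice, with a median log2 fold change of -0.04. By limma none was called in GDF15 against vehicle, pair-fed against vehicle or GDF15 against pair-fed, and 0, 3 and 2 had an unadjusted p under 0.05. Hspa8, which encodes the constitutive chaperone Hsc70 and is named after its values were seen, passed the p-value threshold alone in pair-fed against vehicle-treated mice (-0.19, adjusted p = 0.0659), and did not without vehicle-treated mouse 1, 2, 3 or 5 or pair-fed mouse 2, 5 or 6 (-0.20 to -0.16, adjusted p = 0.1002 to 0.160). Of 3 tested genes for steroid supply, H6pd, Abcb1a and Abcb1b, none was called either, with 1, 0 and 0 at an unadjusted p under 0.05.

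Fkbp5 (chromosome 17, 28399094 to 28517527, minus strand) encodes FKBP51, the co-chaperone that lowers the receptor's affinity for hormone, and it is a common readout of receptor activity. Its levels were 589, 415, 400.2, 440 and 303 normalized counts in vehicle-treated mice, and 518, 713 and 1002 as the lowest, median and highest of the GDF15-treated mice. Pair-fed mice had 325, 544, 412, 341 and 322. All but 1 GDF15-treated mouse stood above every vehicle-treated and every pair-fed mouse, and the exception, mouse 5 at 518, lay below vehicle-treated mouse 1 and pair-fed mouse 3. The mean was 745 ± 164 (SD, n = 6) in GDF15-treated mice, 430 ± 103 (n = 5) in vehicle-treated mice and 389 ± 94.2 (n = 5) in pair-fed mice.

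Fkbp5 rose by a log2 fold change of 0.80 ± 0.17 (SE) compared with vehicle-treated mice (adjusted p = 0.0562) and by 0.94 ± 0.17 compared with pair-fed mice (adjusted p = 0.0155). These are 1.74-fold and 1.92-fold in the means over mice on the log scale. Pair-fed and vehicle-treated mice differed by -0.14 ± 0.18 (adjusted p = 0.729). A two-sided exact permutation test, computed for the 10 genes in 3 comparisons and left unadjusted, gave p = 0.00649 for GDF15 against either control. The call against pair-fed mice was kept without any single library, at an adjusted p of 0.0632 or less. The call against vehicle-treated mice was lost without vehicle-treated mouse 2, 3 or 5 (adjusted p = 0.124, 0.137 and 0.147) or GDF15-treated mouse 2 or 4 (0.121 and 0.114), with log2 fold changes of 0.68 to 0.79, and also with depth as a covariate (0.67, adjusted p = 0.210).

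GDF15-treated mice 2 and 4, the highest of their group in Fkbp5 (845 and 1002) and in Mt1, also stood apart in summed adipocyte markers, at 3793 and 2885 normalized counts beside 2002 to 2093 in the other GDF15-treated mice and 2300.2 to 2524 in vehicle-treated mice. Pair-fed mouse 4 had 2834, beside 2026 to 2139 in the other pair-fed mice. In a fit without these 3 libraries, added after the data were seen, Fkbp5 differed by 0.63 from vehicle-treated and by 0.80 from pair-fed mice, and neither was called (adjusted p = 0.271 and 0.141). The same fit did not call Mt2 against vehicle (0.88, adjusted p = 0.264), and with fewer mice it called 19 genes in GDF15 against vehicle and 7 in GDF15 against pair-fed, where all libraries gave 36 and 33. The part of adipocyte RNA in these differences was not tested further.

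Tsc22d3, on the X chromosome (140539528 to 140600659, minus strand), encodes GILZ, a leucine zipper protein that carries part of the anti-inflammatory action of glucocorticoids. Vehicle-treated mice had 2028, 1728, 1725, 1791 and 1744 normalized counts, and GDF15-treated mice had 2118 to 2569 (median 2210). Pair-fed mice had 2405, 2115, 2039, 2601 and 2235. Every mouse of both groups with reduced intake stood above every vehicle-treated mouse, and the 2 groups overlapped each other throughout. Non-overlapping values were seen for 1.65% of all tested genes in GDF15 against vehicle and for 5.44% in pair-fed against vehicle.

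The log2 fold change of Tsc22d3 was 0.35 ± 0.07 (SE) in GDF15-treated mice (adjusted p = 0.0292) and 0.33 ± 0.07 in pair-fed mice (adjusted p = 0.0157) compared with vehicle-treated mice, which passed the p-value threshold and stayed below the fold threshold. With depth as a covariate the first of these was 0.32 and did not pass (adjusted p = 0.132). The exact permutation test gave p = 0.00217 and 0.00794, the smallest values these group sizes allow. GDF15-treated and pair-fed mice differed by 0.01, with a 95% interval of -0.13 to 0.15. Tsc22d3 and Fkbp5, both textbook receptor targets, thus had different orders of the groups. Its 3 tested relatives Tsc22d1, Tsc22d2 and Tsc22d4 gave no call by limma, with 2, 0 and 2 at an unadjusted p under 0.05 in the comparisons GDF15 against vehicle, pair-fed against vehicle and GDF15 against pair-fed. In the last of these Tsc22d4, named after its values were seen, passed the p-value threshold alone (0.29, adjusted p = 0.0965), and it did not when any library other than GDF15-treated mouse 3 or 6 or pair-fed mouse 3 was left out (0.25 to 0.30, adjusted p = 0.1003 to 0.209). No member had non-overlapping values between GDF15-treated and pair-fed mice, where 1.77% of all tested genes did.

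Sgk1, on chromosome 10 (21882184 to 21999903), encodes a kinase that acts on ion channels and on muscle mass and is induced by glucocorticoids. It had 2008, 2171, 2581, 2656 and 2409 normalized counts in vehicle-treated mice, 2345 to 3271 (median 2654) in GDF15-treated mice and 3250, 3086, 2534, 3361 and 2426 in pair-fed mice. Every pair-fed mouse was above the vehicle median, but the groups overlapped. The log2 fold change was 0.21 ± 0.10 in GDF15-treated and 0.30 ± 0.11 in pair-fed mice compared with vehicle-treated mice, and neither passed (adjusted p = 0.476 and 0.132). The second passed the p-value threshold alone without pair-fed mouse 4 (0.35, adjusted p = 0.0930) or 6 (0.37, adjusted p = 0.0972). None of 7 tested relatives and substrates, among them Sgk3, Nedd4l and Ndrg1, was called in any comparison by limma, and 1, 1 and 2 had an unadjusted p under 0.05 in the same order of comparisons as for Tsc22d3. The ubiquitin ligase gene Nedd4, named after its values were seen, passed the p-value threshold alone in pair-fed against vehicle-treated mice (0.17, adjusted p = 0.0647), and did not without vehicle-treated mouse 2, 3 or 5 or pair-fed mouse 2, 5 or 6 (0.14 to 0.17, adjusted p = 0.105 to 0.159).

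Zbtb16, on chromosome 9 (48654297 to 48836222), encodes the transcription factor PLZF and is strongly induced by glucocorticoids in several cell types. Its levels were 1545, 1037, 1269, 1145 and 1174 normalized counts in vehicle-treated mice, 828 to 1484 (median 1139) in GDF15-treated mice and 842, 1582, 1151, 975 and 706 in pair-fed mice. No order of the groups was apparent, and the spread in pair-fed mice (coefficient of variation 32.3%) was carried by mouse 3 at the top and mouse 6 at the bottom. The log2 fold changes against vehicle were -0.12 ± 0.17 for GDF15 and -0.27 ± 0.18 for pair-feeding (adjusted p = 0.856 and 0.435).

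Cebpb and Cebpd encode C/EBPβ and C/EBPδ, transcription factors that respond to glucocorticoids and to cytokines and that have been linked to muscle wasting. Cebpb (chromosome 2, 167688915 to 167690418) was highest in pair-fed mice, with 490.1, 660.3, 541, 638 and 542 normalized counts, compared with 502, 392, 406, 374 and 428 in vehicle-treated mice. GDF15-treated mice lay between, at 405 to 597 (median 489). Of the 5 pair-fed mice, 4 stood above every vehicle-treated mouse.

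The log2 fold change of Cebpb was 0.45 ± 0.10 in pair-fed compared with vehicle-treated mice (adjusted p = 0.0249), under the fold threshold, and 0.21 ± 0.10 (0.429) for GDF15 against vehicle. GDF15-treated mice were lower than pair-fed mice by -0.23 ± 0.10, which did not pass (adjusted p = 0.313). Of the annotated 50-base stretches of Cebpb, 18.1% also occur in Tmem189 on the opposite strand, so reads there can be told apart only by strand.

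Cebpd (chromosome 16, 15887286 to 15891031) had 150, 167, 259, 216 and 119 normalized counts in vehicle-treated mice, 124 to 210 (median 164) in GDF15-treated mice and 156, 311, 184, 262 and 195 in pair-fed mice. Of its annotated 50-base stretches, 13.7% occur in reverse in Spidr. The groups overlapped, and no difference passed. The log2 fold change was -0.09 ± 0.20 for GDF15 against vehicle, 0.29 ± 0.21 for pair-fed against vehicle and -0.38 ± 0.20 for GDF15 against pair-fed. The first of these turned to 0.05 without vehicle-treated mouse 3. The 4 tested relatives of the C/EBP family gave no call by limma, with 1, 1 and 2 at an unadjusted p under 0.05 in that order. Cebpg, named after its values were seen, was lower in every pair-fed mouse than in every vehicle-treated mouse and passed the p-value threshold alone (-0.35, adjusted p = 0.00829). It was 0.23 higher in GDF15-treated than in pair-fed mice (adjusted p = 0.0877), which did not pass when any library other than GDF15-treated mouse 2 or pair-fed mouse 3 or 4 was left out (0.19 to 0.24, adjusted p = 0.104 to 0.209). The 10 tested acute phase and STAT3 genes, which respond to the same cytokines, gave none either, with 3, 0 and 0.

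Mt1 and Mt2 lie side by side on chromosome 8, Mt2 at 94172664 to 94173568 and Mt1 at 94179082 to 94180327 on the same strand, and encode the 2 broadly expressed metallothioneins. These positions are from GENCODE, whose start of Mt2 lies downstream of the RefSeq start used for the window above. That window ends at 94172667, and every core marked in it lies before the GENCODE start. Neither shares a 50-base stretch with another gene on its own strand, so the pair can be told apart, but 45.8% of the stretches of Mt2 occur in reverse in Gm45774. Both were expressed at a low level in this muscle, with 41.0% and 29.8% of all genes at or below their mean counts.

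Mt2 had 29.7, 20.8, 28.2, 23.4 and 18.4 normalized counts in vehicle-treated mice and 27.0, 51.2 and 58.3 as the lowest, median and highest of the GDF15-treated mice. Pair-fed mice had 27.2, 44.6, 18.8, 26.7 and 28.7. Apart from mouse 5, the lowest, every GDF15-treated mouse stood above every mouse of both control groups, while vehicle-treated and pair-fed mice overlapped. The mean was 48.0 ± 11.2 (SD, n = 6) in GDF15-treated, 24.1 ± 4.82 (n = 5) in vehicle-treated and 29.2 ± 9.40 (n = 5) in pair-fed mice.

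Mt2 rose by a log2 fold change of 0.95 ± 0.22 (1.93-fold, adjusted p = 0.0889) compared with vehicle-treated mice, close to the threshold. It was 0.71 ± 0.22 higher than in pair-fed mice, which did not pass (adjusted p = 0.153). The exact permutation test gave p = 0.00866 and 0.0238. The call against vehicle was lost without any one of vehicle-treated mice 2 to 5, GDF15-treated mice 1 to 4 or 6, or pair-fed mice 2 or 5 (log2 fold change 0.86 to 1.01, adjusted p = 0.101 to 0.208), and with depth as a covariate (0.75, adjusted p = 0.269). The difference from pair-fed mice became a call without pair-fed mouse 3 (0.87, adjusted p = 0.0548) or GDF15-treated mouse 5 (0.86, adjusted p = 0.0643).

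Mt1 had 76.9, 85.4, 75.2, 74.7 and 68.6 normalized counts in vehicle-treated mice, 77.3 to 114 (median 88.2) in GDF15-treated mice and 48.3, 99.8, 69.2, 65.2 and 53.1 in pair-fed mice. Of the 6 GDF15-treated mice, 5 stood above every vehicle-treated mouse, namely mice 2 and 4 at 109.9 and 114 and mice 1, 5 and 6 at 86.2 to 88.5, close to the highest vehicle-treated mouse. Of the 5 pair-fed mice, 3 stood below every vehicle-treated mouse and mouse 3 stood above all of them. The log2 fold change was 0.29 ± 0.16 for GDF15 against vehicle (adjusted p = 0.529), -0.22 ± 0.16 for pair-fed against vehicle (0.509) and 0.51 ± 0.16 for GDF15 against pair-fed (0.141). Without pair-fed mouse 3 the last of these was 0.66 and passed (adjusted p = 0.0206).

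The wider zinc system gave no call by limma, with 1, 3 and 3 genes at an unadjusted p under 0.05 in GDF15 against vehicle, pair-fed against vehicle and GDF15 against pair-fed. Of 17 tested genes, which include the metal sensor Mtf1, the zinc exporter Slc30a1 and importers of the Slc39a family, 10 were higher and 7 lower in GDF15-treated than in vehicle-treated mice (median log2 fold change 0.06). Between GDF15-treated and pair-fed mice 15 were higher and 2 lower, with a median of 0.09 beside 0.00 over all tested genes. Slc39a10, an importer named after its values were seen, was the only one to pass the p-value threshold, at -0.51 in pair-fed against vehicle-treated mice (adjusted p = 0.0278).

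A list of 28 other genes known to be induced by glucocorticoids was examined alongside, and 27 of them were tested. Compared with vehicle-treated mice, 4 rose in GDF15-treated mice, namely Per1, Glul, Arrdc2 and Dusp1, and 2 rose in pair-fed mice, Per1 and Glul. None was called by limma between GDF15-treated and pair-fed mice. In the order GDF15 against vehicle, pair-fed against vehicle and GDF15 against pair-fed, an unadjusted p under 0.05 was found for 14 genes (11 higher, 3 lower), 14 genes (9 higher, 5 lower) and 8 genes (5 higher, 3 lower). In that same order, 20, 18 and 16 of the 27 were higher, with median log2 fold changes of 0.15, 0.10 and 0.02.

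Per1, a clock gene with receptor sites in its promoter, had a mean of 445 ± 60.4 normalized counts in vehicle-treated, 918 ± 192 in GDF15-treated and 1229 ± 184 in pair-fed mice. Its log2 fold change was 1.03 ± 0.13 in GDF15-treated mice (adjusted p = 0.00145) and 1.46 ± 0.14 in pair-fed mice (adjusted p = 2.005e-05). Glul, which encodes the glutamine synthetase that muscle uses to export nitrogen, stood at 1810.1 ± 201, 3693 ± 614 and 3758 ± 1115 in the same order of groups, and rose by 1.02 ± 0.16 (adjusted p = 0.00841) and 1.00 ± 0.17 (adjusted p = 0.00426). In both genes every mouse with reduced intake was above every vehicle-treated mouse, as in Tsc22d3. These calls were kept without any single library.

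Arrdc2, an arrestin-domain gene, had 354 ± 134 normalized counts in vehicle-treated, 1048 ± 319 in GDF15-treated and 706 ± 349 in pair-fed mice. It rose by 1.58 ± 0.29 in GDF15-treated mice (adjusted p = 0.0244), a call that was lost with depth as a covariate (1.40, adjusted p = 0.129), while the difference of 0.92 between pair-fed and vehicle-treated mice did not pass (adjusted p = 0.107). That difference became a call without vehicle-treated mouse 1, GDF15-treated mouse 6 or pair-fed mouse 2 or 6 (adjusted p = 0.0669 to 0.0989). Dusp1, which encodes a phosphatase that switches off MAP kinases, had 618 ± 212, 1074 ± 156 and 730 ± 198 in that order of groups. It rose by 0.86 ± 0.20 in GDF15-treated mice (adjusted p = 0.0744), and the call was lost without vehicle-treated mouse 2, 3 or 4 or GDF15-treated mouse 1, 2 or 4 (log2 fold change 0.67 to 0.89, adjusted p = 0.113 to 0.160), with depth as a covariate (0.88, adjusted p = 0.174), without a trend (adjusted p = 0.156) and with robust estimation (adjusted p = 0.111). Without the 3 libraries high in adipocyte markers, neither Arrdc2 (1.57, adjusted p = 0.134) nor Dusp1 (0.74, adjusted p = 0.307) was called in GDF15 against vehicle. Between GDF15-treated and pair-fed mice, Dusp1 differed by 0.58 (adjusted p = 0.194), which became a call without pair-fed mouse 3 (0.72, adjusted p = 0.0689).

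The Krüppel-like factors Klf9 and Klf15, named after their values were seen, are direct receptor targets in muscle. Klf9 was higher by 0.30 ± 0.03 in pair-fed than in vehicle-treated mice (adjusted p = 0.000132), under the fold threshold. In GDF15-treated mice it was higher by 0.15 ± 0.03 (adjusted p = 0.0744), which no longer passed the p-value threshold without vehicle-treated mouse 2, 4 or 5 or GDF15-treated mouse 1, 2 or 3 (adjusted p = 0.121 to 0.175). It also did not pass with depth as a covariate (adjusted p = 0.194) or without a trend (0.186). Quantile normalization (0.129) and a fit of only the 2 groups compared (0.1225) likewise left it short. Klf15 was higher by 0.45 ± 0.09 in pair-fed mice (adjusted p = 0.0119) and by 0.31 ± 0.09 in GDF15-treated mice (adjusted p = 0.153). Between GDF15-treated and pair-fed mice Klf9 was lower in the former by -0.16 ± 0.03 (adjusted p = 0.0355), which did not pass without pair-fed mouse 6 (-0.14, adjusted p = 0.107).

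Other genes of the list were also named after their values were seen. Pik3r1, which encodes a regulatory subunit of phosphoinositide 3-kinase, passed the p-value threshold alone at -0.40 ± 0.09 in pair-fed against vehicle-treated mice (adjusted p = 0.0235) and at 0.43 ± 0.09 in GDF15-treated against pair-fed mice (adjusted p = 0.0322). Sesn1, a sestrin gene, did so at -0.36 ± 0.08 in GDF15-treated against pair-fed mice (adjusted p = 0.0486), though not without GDF15-treated mouse 4 or pair-fed mouse 5 or 6 (-0.36 to -0.32, adjusted p = 0.117 to 0.130). Nor did Sesn1 pass with depth as a covariate (-0.37, adjusted p = 0.116). Without the 3 libraries high in adipocyte markers, Klf9, Pik3r1 and Sesn1 did not pass in GDF15 against pair-fed (-0.15, 0.38 and -0.39, adjusted p = 0.203, 0.219 and 0.143), nor Klf9 in GDF15 against vehicle (0.15, adjusted p = 0.255). In that fit Tsc22d4 and Cebpg, of the lists above, also missed in GDF15 against pair-fed (0.25 and 0.31, adjusted p = 0.410 and 0.105). So did Nedd4 in pair-fed against vehicle (0.16, adjusted p = 0.130). Compared with vehicle-treated mice, Angptl4, which encodes an inhibitor of lipoprotein lipase, stood at -0.80 ± 0.31 and Pdk4, which encodes a kinase that restrains pyruvate oxidation, at -0.71 ± 0.24 in GDF15-treated mice, and neither passed (adjusted p = 0.338 and 0.254). In pair-fed mice the same genes stood at -0.79 ± 0.32 and -0.58 ± 0.25 compared with vehicle-treated mice (adjusted p = 0.197 and 0.213), and both became calls without pair-fed mouse 4 (-1.04 and -0.77, adjusted p = 0.0684 and 0.0842). Of 3 tested inflammatory genes known to be repressed by glucocorticoids, Icam1, Vcam1 and Nos2, none was called by limma or had an unadjusted p under 0.05 in any comparison.

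**Figure D3:**
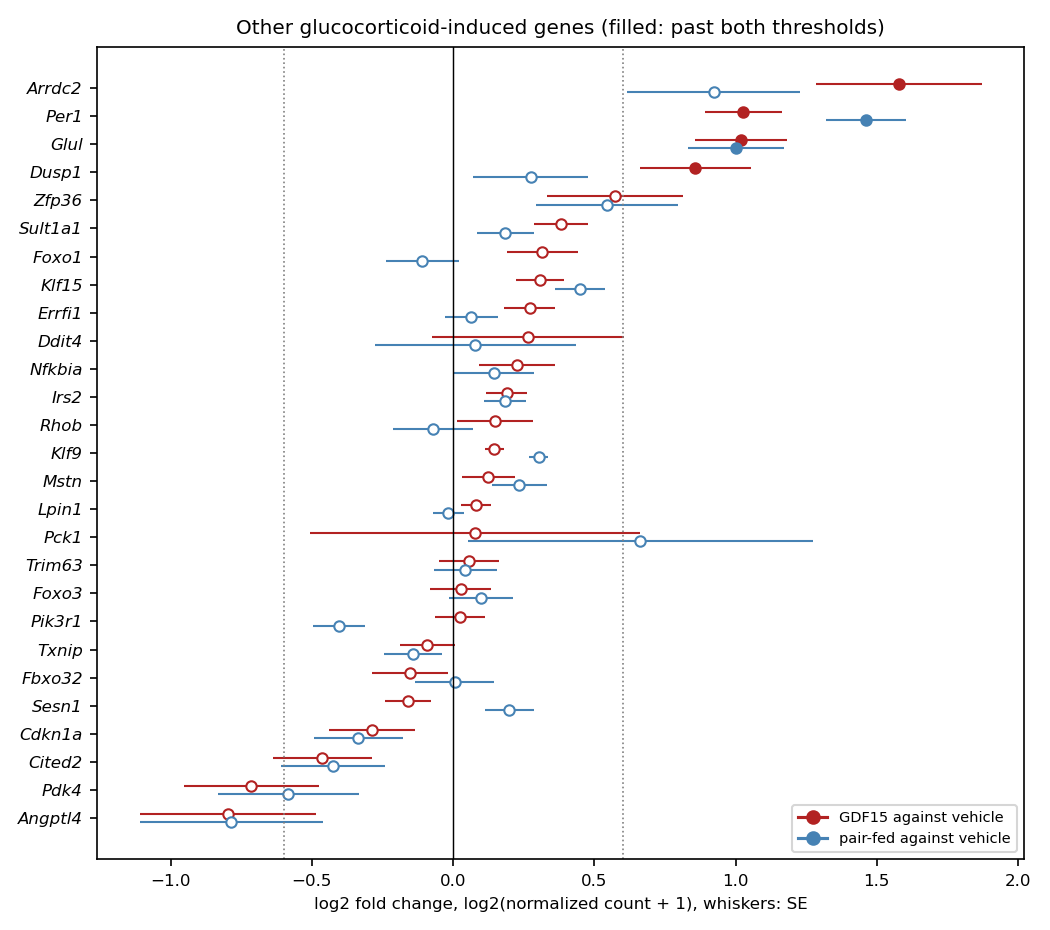
Log2 fold change (horizontal axis, log2(normalized count + 1) scale, whiskers SE) of the 27 tested genes of the glucocorticoid-induced list in GDF15-treated and in pair-fed mice, both compared with the same vehicle-treated mice. Filled points passed both thresholds. Arrdc2, Per1, Glul and Dusp1 are filled for GDF15, and Per1 and Glul for pair-feeding.

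The members were also compared in pairs within groups. After the group means were subtracted, the deviations of Fkbp5 and Mt1 over the 16 mice had a Pearson r of 0.714 (permutation within groups, p = 0.00162, adjusted p = 0.0729 over 45 pairs) and a Spearman rho of 0.803 (p = 0.00111, adjusted p = 0.0499). Without the 2 mice farthest from the median of Fkbp5, r was 0.677, and without the 3 libraries high in adipocyte markers it was 0.625. For Fkbp5 and Mt2, r was 0.670 (permutation p adjusted to 0.161), 0.510 without the 2 farthest mice and 0.837 without the 3 libraries. For Fkbp5 and Zbtb16 it was 0.658 (0.161), 0.429 and 0.791 in the same order.

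Over all 45 pairs of members, r ran from -0.435 to 0.714 with a median of 0.236, and 32 were positive. None had a Pearson p under 0.05 after adjustment, 6 did before it, and 1 pair passed by Spearman's rho. Pair-fed mouse 3 was the highest of its group in Fkbp5, Mt1, Mt2, Zbtb16, Cebpb, Cebpd and Nr3c1, and GDF15-treated mouse 5 was the lowest of its group in Fkbp5, Mt2, Zbtb16, Cebpd and Nr3c1. Tsc22d3 had an r of -0.07 with Fkbp5 and -0.435 with Mt1, Sgk1 had -0.10 and -0.08, and Hsd11b1 had -0.09 and -0.07.

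**Figure D4:**
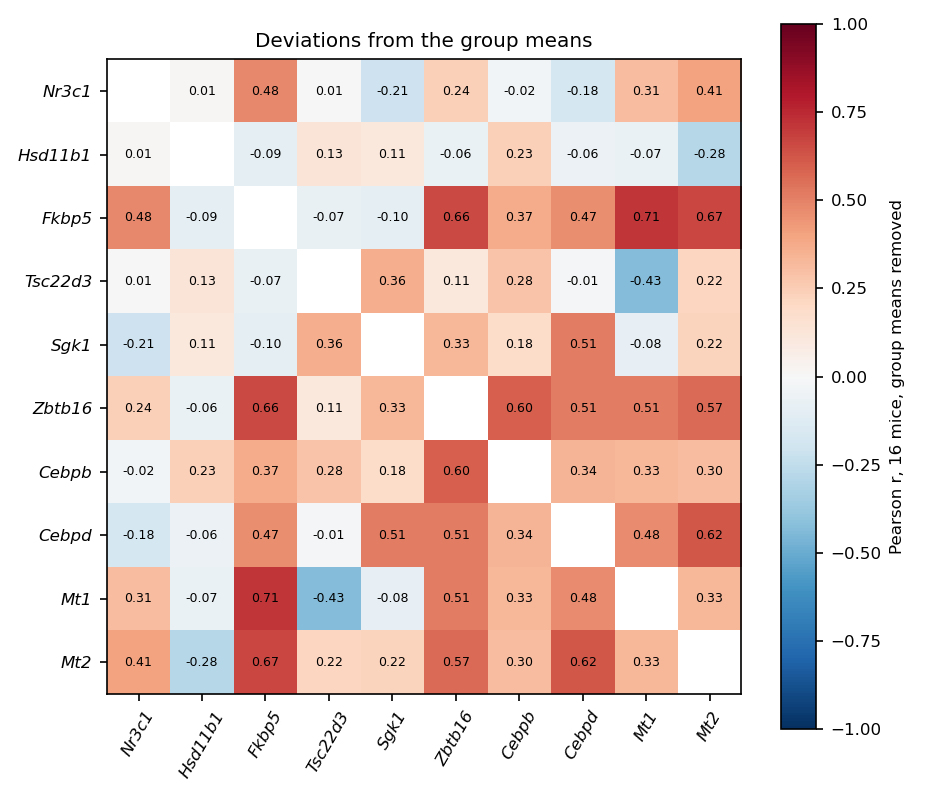
Pearson r (colour scale from -1 to 1, value in each cell) between the 10 genes over 16 mice after the mean of each group was subtracted from log2(normalized count + 1). Fkbp5, Zbtb16, Cebpb, Cebpd, Mt1 and Mt2 have positive values with one another, and the highest is 0.714 for Fkbp5 and Mt1.

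Over all 16 mice, with the group differences included, genes whose pattern was among the most like that of Fkbp5 were Ppp1r3c, which encodes a glycogen-targeting subunit of protein phosphatase 1 (r = 0.848), Lrrc30 (0.815), Foxo1 (0.814) and Wbp1l (0.805). Ppp1r3c averaged 4411 normalized counts in vehicle-treated, 6145 in GDF15-treated and 2722 in pair-fed mice. The genes most like Mt1 were Tmtc1 (0.846), Arhgap44 (0.832), Car14 (0.831), Kcnn2 (0.827) and Esr1 (0.818). These are correlations over mice that share their group, and are given as a description.

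Whole muscle holds several cell types, and a lower level can mean fewer cells of a type or less RNA per cell, which cannot be told apart here. Summed over 10 genes, the myofibre markers gave 2144000 to 2601120 normalized counts in every library, and 1 of them, Myh1, was called lower in pair-fed than in vehicle-treated mice (-0.68, adjusted p = 0.0123), a call lost under the fold threshold without pair-fed mouse 2 (-0.58). By the p-value threshold alone, 2 of the myofibre markers were higher and 2 lower in that comparison. Against vehicle, all 3 tested red blood cell markers were higher in GDF15-treated mice (median log2 fold change 1.24, none called), with summed levels of 838 to 2556 normalized counts beside 260 to 3146 in vehicle-treated and 79.9 to 3743 in pair-fed mice. They were also all higher in GDF15-treated than in pair-fed mice (median 1.17, none called). Against pair-fed mice, all 7 macrophage, 6 fibroblast, 5 Schwann cell and 4 smooth muscle markers were higher in GDF15-treated mice (medians 0.42, 0.35, 0.52 and 0.05, none called). Against vehicle-treated mice, 6 of 7 macrophage, 4 of 6 fibroblast, 5 of 5 Schwann cell and 6 of 8 adipocyte markers were higher in GDF15-treated mice (medians 0.26, 0.26, 0.23 and 0.36, none called), and 0 of 4 smooth muscle markers were. In pair-fed against vehicle-treated mice, 5 of 7 macrophage, 5 of 6 fibroblast and 5 of 5 Schwann cell markers were lower (medians -0.16, -0.13 and -0.27, none called). There 6 of 8 adipocyte markers were higher (median 0.19, none called), and all 4 smooth muscle markers were lower (median -0.10). Summed macrophage markers were 287 to 508 in vehicle-treated, 248 to 588 in GDF15-treated and 218 to 582 in pair-fed mice. In the same order, fibroblast markers summed to 2950.3 to 5712, 3920 to 6788 and 2971 to 5979, Schwann cell markers to 665 to 1016, 787 to 1193 and 420 to 1218, and smooth muscle markers to 1589 to 2157, 1301 to 2151 and 1639 to 2111. All 6 endothelial markers were lower than in vehicle-treated mice in both other groups, with summed levels of 4515 to 5408 in vehicle-treated, 3790 to 4598 in GDF15-treated and 3960 to 4802 in pair-fed mice, and 1 of them, Kdr, was called in GDF15-treated mice (-0.66, adjusted p = 0.00116) and passed the p-value threshold alone in pair-fed mice (-0.50, adjusted p = 0.00473), with no overlap with vehicle-treated mice in either group. Without the 3 libraries high in adipocyte markers, Kdr in GDF15-treated mice fell short of the fold threshold (-0.59). Of 4 smooth muscle markers 1, Cnn1, was called lower in pair-fed than in vehicle-treated mice (-1.47, adjusted p = 0.0523), a call lost without vehicle-treated mouse 1 or 2 or pair-fed mouse 5 or 6 (adjusted p = 0.109 to 0.124). Adipocyte markers (8 tested) summed to 2300.2 to 2524 in vehicle-treated, 2002 to 3793 in GDF15-treated and 2026 to 2834 in pair-fed mice, with no call. Satellite cell markers (4 summed, 3 tested) came to 86.9 to 146 over all libraries, with no call. The sum of the 3 neutrophil markers analysed lay between 0 and 49.9 per library, and they were not tested. The part of these cells and of depth in the differences of Fkbp5, Mt1 and Mt2 was not tested beyond the values given.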

How the data were processed

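Total RNA libraries of tibialis anterior (stranded NEBNext Ultra II Directional kit, read pairs of 50 bp per end) were trimmed by the authors with Trim Galore and quantified with Salmon, and genes were analysed with DESeq2. The submitters' processing notes name the build mm10, and versions are not given in the sources used here. The authors deposited log2 values (7.32 to 19.96) from a variance stabilizing transformation, 1 per symbol and library. These were transformed back to normalized counts on the assumption of that transformation's closed form. Low values of genes with a single transcript then fell within 0.1 reads of whole multiples of a step in 87.7% to 96.3% of cases per library, and in 20.5% to 27.1% for genes with more than 4 transcripts, so whole reads were not recovered and depth is approximate.

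The 11841 genes whose mean reached 10 normalized counts entered limma 3.58.1 in R 4.3.3 (trend, 3 groups in 1 fit, no covariate, two-sided, Benjamini-Hochberg adjustment over all of them) on log2(normalized count + 1). The fit and the correlation test were checked on simulated data. Correlations used 100000 permutations within groups in Python 3.11.15 with numpy 2.4.6 and scipy 1.17.1. Positions are from GENCODE vM21 (GRCm38), promoter windows from RefSeq.

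The members and the gene lists were chosen with earlier results of these data known. Genes named are the 10 members, genes of the lists past both thresholds in any comparison, and the 5 genes most like Fkbp5 and most like Mt1, of which 1 is not reported here. Klf9, Klf15, Slc39a10, Kdr, Myh1, Cnn1, Pik3r1, Sesn1, Angptl4, Pdk4, Hspa8, Nedd4, Cebpg and Tsc22d4 were added after their values were seen, and a few other list genes are named, without values, as examples of what a list holds. Fabp4 and Adipoq are given by level only, to describe the adipocyte sums, also after their values were seen. Neither was tried under the alternatives. Mouse numbers recur across groups, and the labels do not say whether they pair the mice. The main fit treated the mice as unpaired. The alternatives were other pseudocounts, minimum counts, scales, scalings, spread estimates, groups in the fit, a mouse number block, a depth covariate, other thresholds, each library left out in turn and, added after the data were seen, the 3 libraries high in adipocyte markers left out together. Replicates are separate mice.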

Additional observations from a re-analysis of the deposited data

Results flagged for a closer look

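In 1 of 30 sets of values, 1 set for each gene and group, a mouse stood far from the rest of its group. Vehicle-treated mouse 1 had 2028 normalized counts of Tsc22d3, and its gap to the nearest vehicle-treated mouse took up 0.783 of the range of the group. Chance flags about 1 in 20 such sets. The mouse was also the highest vehicle-treated mouse in Fkbp5 (589), Mt2 (29.7), Cebpb (502), Nr3c1 (1186) and Zbtb16 (1545), but the lowest in Sgk1 (2008). Its library was the shallowest of the group at 11883587 reads. Its Tsc22d3 value lay just below the lowest pair-fed mouse (2039).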

How the results depend on the processing

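Of 897 values of the members under the alternatives (30 results), 855 kept their direction and their status against both thresholds taken jointly, 29 lost a call, 6 gained one and 7 changed sign. Of the 855, 4 crossed the p-value threshold alone, 1 for Tsc22d3 and 3 for Sgk1. Fkbp5 against pair-fed mice was called in 29 of 30 alternatives, and was not (0.7989, adjusted p = 0.141) without the 3 libraries high in adipocyte markers, a setting added after the data were seen. Fkbp5 against vehicle lost its call in 10 of 30, and Mt2 in 18 of 29. Per1 and Glul kept their calls against vehicle in all 30. The same alternatives were tried for Per1, Glul, Arrdc2, Dusp1 and the genes added by name, after the data were seen, and of the latter none changed direction but Cnn1.

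For GDF15 against vehicle, the 36 genes called became 9 on the deposited log2 values, 20 with the replicate block, 19 with depth as a covariate, 23 at an adjusted p under 0.05, 19 without the 3 libraries and 91 without a fold threshold, and 21 to 38 when each library was left out in turn. The 2 members called became 1 with a minimum mean of 50 (Mt2 then was not tested), with quantile normalization or with the replicate block, 0 on the deposited values, without a trend, with depth as a covariate, at an adjusted p under 0.05 or without the 3 libraries, and 0 to 2 when each library was left out. For pair-fed against vehicle, 97 genes became 17 on the deposited values, 56 at an adjusted p under 0.05 and 754 without a fold threshold, and 60 to 157 in the leave-outs, the highest without pair-fed mouse 3, and the 0 members became 2 without a fold threshold. For GDF15 against pair-fed, 33 genes became 7, 18 and 257 under the same 3 settings and 15 to 62 in the leave-outs, again highest without pair-fed mouse 3, and members called were 1 to 3. Without the 3 libraries it was 7 genes and 0 members. Deposited values compress differences at low counts by construction, and for the other settings the cause was not tested.

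For GDF15 against pair-fed, Tsc22d3 became -0.0218 with the replicate block and -0.0182 with depth (-0.0256 to 0.0621 in the leave-outs), and Glul became -0.0415 and -0.0438, and -0.0920 without the 3 libraries (-0.1509 to 0.1111). In GDF15 against vehicle, Cebpd ran from -0.2262 to 0.0531 and Cnn1 from -0.5021 to 0.0143 in the leave-outs.

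Deviations of same-numbered mice from their group means correlated at -0.099 to 0.067 over 14 pairs. For differently numbered mice of different groups they correlated at -0.112 to 0.194 over 71 pairs. The labels do not say whether the numbers pair the mice, and these correlations cannot decide it. The replicate block changed the calls of Mt2 and Dusp1 (GDF15 against vehicle, adjusted p = 0.122 and 0.146) and of Arrdc2 and Cnn1 (pair-fed against vehicle, 0.0688 and 0.116), and no other call among the genes tried. Klf9 (GDF15 against vehicle, 0.152), Cebpg and Tsc22d4 (GDF15 against pair-fed, 0.136 and 0.116) then missed the p-value threshold that they had passed alone. With depth as a covariate, Cebpg and Tsc22d4 missed it too (adjusted p = 0.203 and 0.146). Of the 5 genes most like Fkbp5 and most like Mt1, 2 each were kept with Spearman's rho. At this depth, Mt2 and Hsd11b1 rest on few reads per library, which limits their precision.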
